A study of Mus musculus with 300 samples.

Results

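Q3 is the second-dimmest of 4 brightness classes of mouse spermatogonia carrying an ID4-EGFP reporter, and its members were all cells whose label gives the EGFP epifluorescence quartile Q3. It holds 71 of the 300 cells in the series. The others are 79 cells in Q1 (the brightest), 78 in Q2 and 72 in Q4 (the dimmest). All cells came from untreated adult mice, whose age is not given beyond adult, and testes of several mice were pooled for each of 4 replicate preparations. Spermatogonia were enriched on a Percoll cushion and sorted for bright CD9 and for EGFP, so that reporter-negative cells were gated out of every group. Single cells were captured on Fluidigm C1 chips and imaged, and dead cells, debris and multiplets were excluded. EGFP brightness was read from the chip image of each cell and cut into quartiles, and the brightness value of a single cell was not used here. The preparation, read from the number in the sample title, was the replicate (n = 4), and it contributed 15, 20, 17 and 19 Q3 cells. A preparation pools animals, so its spread can hold both animal and technical differences.

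ID4 is a helix-loop-helix inhibitor of DNA binding that is enriched in spermatogonial stem cells. In the testis, stem cells renew in response to GDNF from Sertoli cells, which acts through the receptors GFRA1 and RET, and to FGF. Their progeny become progenitors that express NEUROG3, NANOS3, RARG and UPP1, and retinoic acid then drives progenitors to become differentiating cells with KIT and STRA8. The question here is what distinguishes cells of the second-dimmest quartile, and how much they differ from one another.

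The values are FPKM (fragments per kilobase of transcript and per unit of library depth), and a level below is the mean over the cells of 1 preparation and quartile of log2(FPKM + 1). Differences are on that scale, which understates the change of genes with low values. Because logs are averaged over cells, a gene near 0 in some cells can also differ more than its mean FPKM does. An SD is over the 4 preparations, an SE is from limma, and a call is an adjusted p (Benjamini-Hochberg over 10411 genes) under 0.05. Per Q3 cell, between 3454 and 7817 genes stood at 1 FPKM or more (median 5380), and an estimated 52800 to 1320000 fragments lay behind the values (median 729000). Genes per cell averaged 5426 ± 851 (SD, n = 4) in Q3, against 5687 ± 697 in Q1, 5485 ± 889 in Q2 and 5356 ± 810 in Q4. The Q3 mean lay 82.8 genes below the mean of the other quartiles, which an exact two-sided permutation of the Q3 label within preparations did not separate from them (p = 0.535). Preparation 1 stood apart with 4188 genes per Q3 cell, against 5657 to 6130 in the other preparations. The germ cell marker Ddx4 stood at 1 FPKM or more in 71 of 71 Q3 cells and Sall4, a transcription factor of undifferentiated spermatogonia, likewise in 71. Lists of markers of Sertoli, Leydig, peritubular myoid, endothelial, erythroid, spermatocyte and spermatid cells matched 0 Q3 cells, and the macrophage and leukocyte list matched 2. Summed over its 8 measured members, that list stood at 1.04 to 3.51 log2(FPKM + 1) in the Q3 preparations, 0.23 to 1.93 in Q1, 0.70 to 4.10 in Q2 and 1.06 to 2.68 in Q4, and 0 of the members were at 0 in every Q3 cell.

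The 3 promoter windows printed here belong to the genes the results return to: Egr2, Eppin and Sdc4. Egr2 had its lowest mean in Q3 and Eppin its highest, and neither was called against the mean of the other quartiles. Sdc4 was the 1 gene called between Q3 and Q4. Each window runs from 250 to 31 bases before the RefSeq transcription start (GRCm38.p6), 5′ to 3′ on the gene's strand. Capitals mark matches to the motifs named after it. The Egr2 window lies at chr10:67535249-67535468 on the plus strand, ahead of the gene in the GENCODE annotation and before the first of 5 starts that RefSeq lists. The Eppin window lies at chr2:164593602-164593821 on the minus strand, ahead of the gene. The Sdc4 window lies at chr2:164443219-164443438 on the minus strand, inside an intron of a longer Sdc4 transcript in GENCODE.
Egr2: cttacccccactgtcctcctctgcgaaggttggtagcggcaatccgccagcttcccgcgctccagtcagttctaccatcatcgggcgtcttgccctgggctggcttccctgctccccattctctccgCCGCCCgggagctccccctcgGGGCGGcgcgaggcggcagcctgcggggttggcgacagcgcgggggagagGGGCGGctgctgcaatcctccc
Eppin: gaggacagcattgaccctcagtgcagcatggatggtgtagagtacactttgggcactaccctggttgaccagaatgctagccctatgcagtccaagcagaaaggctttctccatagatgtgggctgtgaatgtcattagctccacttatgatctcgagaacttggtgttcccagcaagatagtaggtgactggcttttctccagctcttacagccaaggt
Sdc4: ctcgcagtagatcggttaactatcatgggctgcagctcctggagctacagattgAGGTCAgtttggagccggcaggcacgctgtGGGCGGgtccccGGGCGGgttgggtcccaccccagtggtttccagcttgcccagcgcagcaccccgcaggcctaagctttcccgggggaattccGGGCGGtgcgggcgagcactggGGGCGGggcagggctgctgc
A GC box (GGGCGG or its reverse complement CCGCCC) stood at 3 places in the Egr2 window and at 4 in that of Sdc4. The nuclear receptor half-site AGGTCA, the core of the sites that retinoic acid receptors bind, occurred in the Sdc4 window at 196 bases before the start. The Eppin window held 0 matches to any motif searched. Among 32851 RefSeq promoter windows of the same length, 28.5% held a GC box, 12.5% the half-site or its reverse complement, 31% a CCAAT box, 9.95% a TATAAA and 5.01% a CACGTG. Base composition differed too: 70.5% of the Egr2 bases and 67.7% of the Sdc4 bases were G or C, against 49.5% for Eppin and a median of 51.8% over all windows. A match is a description of the letters and not a binding site.

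No gene peaked or reached its lowest level in Q3 past the threshold. Against the mean of the other quartiles, 0 of 10411 genes were called (0%, limma), and 791 genes (7.60%) had an unadjusted p under 0.05, 274 of them higher and 517 lower in Q3. The same contrast gave 167 calls for Q1 (1.60%), 0 for Q2 (0%) and 123 for Q4 (1.18%). Q3 held the highest of the 4 quartile means for 1994 genes (19.2%) and the lowest for 2803 (26.9%). The smallest adjusted p for Q3 was 0.169, shared by Enc1 and Egr2, and the genes below are therefore given by their values, chosen by the smallest p among those with Q3 highest or lowest and with 1 sign in all 4 preparations.

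Enc1, which encodes an actin-binding kelch protein, stood highest in Q3 in every preparation. Its Q3 levels were 6.55, 8.40, 7.95 and 7.96 in preparations 1 to 4, against 5.29, 6.84, 6.61 and 6.94 in Q1, 5.46, 8.07, 6.25 and 7.00 in Q2, and 4.95, 7.77, 6.85 and 5.75 in Q4. The groups overlapped, while each preparation had its own maximum in Q3. Preparation 1 was the lowest in every quartile, and preparation 2 was the highest in Q2, Q3 and Q4 but not in Q1. The mean rose to 7.71 ± 0.81 (SD, n = 4) from 6.42 ± 0.77 in Q1, a difference of 1.30 (SE 0.29, adjusted p = 0.0238 by limma). Against Q2 (6.69 ± 1.11) and Q4 (6.33 ± 1.24) the differences were 1.02 (adjusted p = 0.404) and 1.38 (adjusted p = 0.246). In single cells the median was 403 FPKM in Q3, 171 in Q1, 211 in Q2 and 217 in Q4, and 3 of 71 Q3 cells lay under 1 FPKM, against 14 of 72 in Q4.

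Eppin, an epididymal protease inhibitor gene whose promoter is shown above, was listed in few cells, and the share of such cells was largest in Q3. It stood at 1 FPKM or more in 26 of 71 Q3 cells, against 7 of 79 in Q1, 14 of 78 in Q2 and 18 of 72 in Q4. The Q3 levels were 2.74, 1.60, 1.67 and 1.66, all above the 0.21 to 0.54 of Q1 and the 0.42 to 1.45 of Q2, but overlapping the 1.03 to 2.12 of Q4. The difference from Q1 was 1.55 (SE 0.28, adjusted p = 0.00368 by limma), and that from Q4 was 0.53 (adjusted p = 0.778).

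The other 8 genes at the top in Q3 fell into those that were as high in Q4 and those that were not. Ndrg4, of the NDRG family, had levels of 5.52, 4.99, 5.07 and 5.74 in Q3 and a mean of 5.28 ± 0.84 in Q4, against 2.97 ± 0.52 in Q1, and it was higher in Q3 than in Q1 by 2.36 (SE 0.35, adjusted p = 0.000614). Snx33, a sorting nexin, exceeded Q1 by 1.64 (SE 0.29, adjusted p = 0.00348) and Q4 by 0.27. Tango6, named for transport and Golgi organization, had nearly the same mean in Q1, Q2 and Q4 (0.97, 0.97 and 0.92) and 1.88 ± 0.33 in Q3, with 32 of 71 cells at 1 FPKM or more against 21, 22 and 20. Zfp963 showed the same shape at a lower level (0.65, 0.47 and 0.42 against 1.29 ± 0.46), and its exons overlap another annotated gene on its strand, so its reads may be shared. Sgk1, the serum and glucocorticoid regulated kinase, was higher than in Q1 by 1.54 (SE 0.35, adjusted p = 0.0238), with means of 1.91, 2.41, 3.45 and 2.47 from Q1 to Q4. For Nudt19, Ntmt1 and Mfsd5 the Q3 means were 4.80, 3.23 and 3.04, and 0 of these 3 passed the test against any quartile. For Mfsd5 preparation 1 was low throughout, at 1.66 in Q3 and 0.49 to 1.00 in the other quartiles, and Q3 was above the mean of the others in each preparation.

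**Figure D1:**
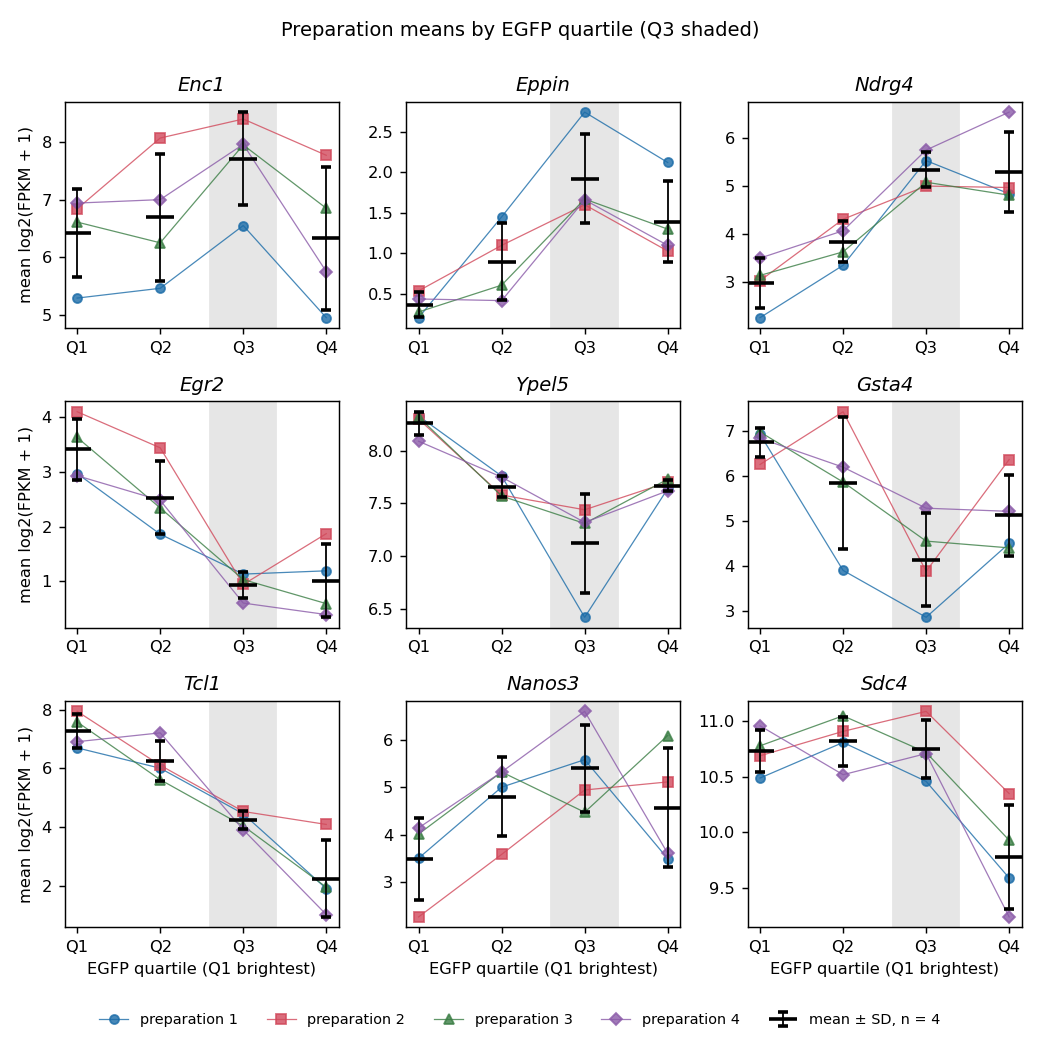
Mean log2(FPKM + 1) over the cells of each preparation (colored symbols joined by lines, n = 4) in EGFP quartiles Q1 to Q4, with the mean ± SD in black and Q3 shaded. Enc1 is highest in Q3 in each preparation, Egr2 is about as low in Q3 as in Q4, Tcl1 steps down from quartile to quartile, and Sdc4 stays at the level of the bright quartiles in Q3 and is lower in Q4.

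Egr2, a zinc-finger transcription factor induced by growth factors, had its lowest mean in Q3, where 52 of 71 cells lay under 1 FPKM. Its levels were 1.13, 0.94, 1.03 and 0.60 in the Q3 preparations, below the 1.86 to 3.44 of Q2 and the 2.93 to 4.10 of Q1, and inside the 0.39 to 1.87 of Q4. It fell by 2.48 from Q1 to Q3 (SE 0.34, adjusted p = 0.000205 by limma). Most of that distance lay between Q2 and Q3, which differed by 1.60 (SE 0.34), but the adjusted p of that step was 0.164. Between Q3 and Q4 the means were 0.93 ± 0.23 and 1.01 ± 0.67.

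Ypel5, Gsta4 and Ndufa1 also had their lowest mean in Q3, while remaining at levels of several log2 units. Ypel5, of the yippee-like family, was detected in every cell of the 4 quartiles, and its Q3 levels of 6.42, 7.44, 7.31 and 7.32 lay below all levels of Q1 (8.09 to 8.33), Q2 (7.57 to 7.76) and Q4 (7.62 to 7.73). It was lower in Q3 than in Q1 by 1.14 (SE 0.21, adjusted p = 0.00462), while the differences from Q2 (−0.54) and Q4 (−0.55) did not pass the test (adjusted p = 0.572 and 0.691). Gsta4, a glutathione transferase, stood at 2.86, 3.88, 4.55 and 5.28 in Q3, with means of 6.74, 5.84, 4.14 and 5.12 from Q1 to Q4, and it fell by 2.60 against Q1 (SE 0.46, adjusted p = 0.00348). Ndufa1, a subunit of respiratory complex I, had means of 7.48, 7.00, 5.98 and 6.90 and was lower than in Q1 by 1.50 (SE 0.32, adjusted p = 0.0149). That call was lost in 8 of 13 other settings, and the difference was −0.41 with the log2 of the mean FPKM.

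The other 6 genes with a Q3 minimum stood at means of 3.56 or less there. Crygs, a lens crystallin, and Mpzl2, an adhesion protein, were at 0.77 ± 0.54 and 0.28 ± 0.21 in Q3 and at 0.94 and 0.45 in Q4, with falls of 2.34 (SE 0.30) and 2.26 (SE 0.34) from Q1 and adjusted p-values of 0.000102 and 0.000627. Rab4a, a GTPase of endosome recycling, was at 1 FPKM or more in 2 of 71 Q3 cells, 5 of 72 in Q4 and 35 of 79 in Q1. Stat3, the transcription factor downstream of cytokine receptors, kept its level from Q1 (3.68) to Q2 (3.66) and stood at 2.04 ± 0.65 in Q3 and 2.63 ± 0.46 in Q4, and it was lower than in Q1 by 1.64 (SE 0.36, adjusted p = 0.0214), a call lost in 9 of 13 other settings. Atxn10 had the same shape (5.38, 5.52, 3.56 and 3.98), with preparation 1 at 1.53 and the others at 3.83 to 4.55. Asb6 stood at 0.68 ± 0.34 in Q3 and did not pass the test against any quartile. Exons of Stat3 and Mpzl2 overlap genes on the other strand, and the library kit does not mark strand. Such an overlap is also annotated for Nudt19, Lin28a, Sall4 and Neurog3, which are named elsewhere in the results.

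Sdc4 was the 1 gene called between Q3 and Q4. It encodes syndecan 4, a cell-surface heparan sulfate proteoglycan, and was detected in every Q3 cell, with 182 to 6180 FPKM in single Q3 cells and a median of 1810. Its levels in Q3 were 10.46, 11.09, 10.72 and 10.71, which overlapped those of Q1 (10.49 to 10.96) and Q2 (10.52 to 11.05). In Q4 they were 9.59, 10.35, 9.93 and 9.24, all below Q3, as were the Q4 levels of Gfra1, Ret and Etv5, which were not called. The difference of 0.97 between Q3 and Q4 (SE 0.15, adjusted p = 0.00757 by limma) was the 1 call among 10411 genes in that comparison (0.00961%), in which 685 genes had an unadjusted p under 0.05. In single cells, 8 of the 72 in Q4 lay below the lowest Q3 cell, and 0 cells of Q1 or Q2 did. The SD between cells was 0.90 in Q3, 0.75 in Q1, 0.65 in Q2 and 2.28 in Q4. The call was lost in 7 of 13 other settings, over which the adjusted p ran from 4.95e-05 to 0.626, among them the fit without preparation as a block and the data without preparation 3 (adjusted p = 0.0985) or preparation 4 (adjusted p = 0.199). With the log2 taken of the mean FPKM the difference was 0.45.

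The other markers used to describe these cells were Nanos3 and Rarg. Nanos3, an RNA-binding repressor of germ cells, had its highest mean in Q3, at 5.40 ± 0.92, with levels of 5.58, 4.94, 4.47 and 6.60. The means were 3.48 ± 0.86 in Q1, 4.80 ± 0.83 in Q2 and 4.57 ± 1.26 in Q4, and the Q3 levels lay above all Q1 levels and overlapped the rest. The difference from Q1 was 1.92 (SE 0.51) with an adjusted p of 0.0697, so it was not called. It passed in 2 of 13 other settings, with a pseudocount of 0.1 and without preparation 3 (adjusted p = 0.0327). Nanos3 stood at 1 FPKM or more in 57 of 71 Q3 cells, or 73.3%, 80%, 76.5% and 89.5% by preparation, against a mean of 57.1% in Q1, 70.5% in Q2 and 67.1% in Q4. The exact two-sided permutation test gave p = 0.0273 for that share, and 0.656 after adjustment over 24 shares, of which 0 passed. The smallest p this test can give is 0.00391, too large for 1 share alone to pass after adjustment over 24. Relabeling also puts Q1 or Q4 in the place of Q3, so a share graded over the quartiles cannot give Q3 a small p. The absence of passing shares is therefore not a result about them. Rarg, the retinoic acid receptor gamma, was low (median 5.09 FPKM in the cells that had it) and stood at 1.68 ± 0.26 in Q3 and 1.87 ± 0.26 in Q4, against 0.81 ± 0.39 in Q1. It was detected in 43 of 71 Q3 cells, 44 of 72 in Q4, 30 of 78 in Q2 and 24 of 79 in Q1, and its difference from Q1 was 0.87 (adjusted p = 0.132).

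Against the brightest cells, Q3 differed in 102 of 10411 genes (0.980%), of which 90 were lower (0.864%) and 12 higher (0.115%). The sign was the same in all 4 preparations for 100 of the 102. The median of the 90 was a fall of 1.61 on the log2 scale (3.05-fold), and that of the 12 a rise of 1.57 (2.97-fold). Both folds come from logs averaged over cells and not from the mean FPKM. The median over all tested genes was itself −0.098, and after the median of each mean was centred 75 genes were called, 56 lower and 19 higher, a share of 74.7% lower in place of 88.2%. A row named Id4e, which matches no gene symbol, is among the 90 and is not described; whether it reads the reporter on which the quartiles were cut was not tested. The count was 33 without the preparation block, 7 when the log2 was taken of the mean FPKM, and 31, 48 and 34 without preparation 2, 3 or 4. Nefm, Tcl1, Dusp6, Egr2, Crygs, Eppin, Hhex and Eomes lost the call only with the log2 of the mean FPKM, while Enc1 lost it in 8 of 13 settings, without each of the preparations in turn among them, Upp1 and Tspan8 in 6, Rhox10, Sgk1 and Spry2 in 7, Ndufa1 in 8, Stat3 and Sohlh1 in 9 and Foxc2 in 10. T lost it in 6 of the settings in which it was tested.

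Nefm led the lower genes. It encodes the medium neurofilament protein, and its levels were 0.77, 1.83, 1.20 and 0.47 in Q3 against 4.0, 4.99, 4.47 and 4.28 in Q1. It fell by 3.37 (SE 0.40, adjusted p = 4.41e-05), from 69 of 79 cells at 1 FPKM or more to 19 of 71. Q2 stood between, at 2.92 ± 0.64, and Q4 at 0.62 ± 0.73. Exons of Nefm overlap those of Nefl on the other strand. Ptpn13, a tyrosine phosphatase, was lower by 2.63 (SE 0.40, adjusted p = 0.000627), and Tagln2, an actin-associated protein, by 2.41 (SE 0.34, adjusted p = 0.00034). Ptpn13 also has an overlapping gene on the other strand.

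The list of 19 genes associated with stem cells had 15 tested members, of which 10 were lower in Q3 than in Q1 and 0 higher: Gfra1, Etv5, Eomes, Lhx1, T, Foxc2, Tspan8, Mcam, Tcl1 and Hhex. With the log2 of the mean FPKM each of the 10 lost the call, with the sign unchanged. Counting that setting, Gfra1 and Etv5 lost it in 2 settings, Lhx1 in 3 and Mcam in 5. The median difference of the 15 was −1.58, against −0.10 over all genes tested, of which 0.864% were called lower than in Q1. The list was chosen with earlier results of these data known, so its distance from all genes is a description and not a test. Against Q2 the median was −0.73 and against Q4 it was 0.48, with 0 of 15 called in either comparison. All 15 were higher in Q3 than in Q4, as were 5325 of all 10411 genes. The stem cell genes did not share 1 shape along the quartiles, and 3 kinds are described by their values below.

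Tcl1, which binds and activates AKT kinases, stepped down through every quartile. Its Q3 levels were 4.46, 4.54, 4.05 and 3.92, with no overlap with Q1 (6.70 to 7.94) or Q2 (5.62 to 7.21) and overlapping Q4 (1.04 to 4.10) through preparation 2. It fell by 3.04 from Q1 to Q3 (SE 0.43, adjusted p = 0.00034), and the further differences, −1.99 from Q2 and 1.99 from Q4, had adjusted p-values of 0.164 and 0.270. Etv5, a transcription factor induced by GDNF, was about level in Q1 (5.09 ± 0.47) and Q2 (4.80 ± 0.59), and stood at 2.55, 3.25, 3.66 and 2.58 in Q3 and 1.35 ± 0.65 in Q4. Its Q3 levels did not overlap those of any other quartile, and it was lower than in Q1 by 2.08 (SE 0.37, adjusted p = 0.00348). Gfra1, the GDNF co-receptor, was lower by 2.32 (SE 0.40, adjusted p = 0.00238), with levels of 1.77, 2.89, 2.91 and 1.78. For its signalling partner Ret the means were 3.13, 2.48, 1.99 and 1.12, and the difference from Q1 of −1.15 had an adjusted p of 0.138. Gfra1 has an overlapping gene on the other strand.

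Eomes and T, T-box transcription factors, were already near their floor in Q3. Eomes was at 1 FPKM or more in 46 of 79 Q1 cells, 27 of 78 in Q2, 6 of 71 in Q3 and 5 of 72 in Q4, and its levels in Q3 were 0.47, 0.04, 0.54 and 0.40. It fell by 2.26 from Q1 (SE 0.33, adjusted p = 0.000477), while Q3 and Q4 differed by 0.17. T was at 1 FPKM or more in 29 of 79, 16 of 78, 3 of 71 and 4 of 72 cells from Q1 to Q4 and fell by 1.58 (SE 0.32, adjusted p = 0.0092). Lhx1, a LIM homeobox factor, was lower by 1.22 (SE 0.23, adjusted p = 0.00539), most of it between Q1 (1.55) and Q2 (0.54), with 0.33 in Q3. Hhex and Foxc2, further transcription factors, were lower by 2.42 (SE 0.41) and 1.43 (SE 0.35), and Mcam and Tspan8, cell-surface proteins, by 1.69 (SE 0.34) and 1.91 (SE 0.40). Mcam remained at 1 FPKM or more in 56 of 71 Q3 cells, as in 57 of 72 Q4 cells. Exons of Eomes and Tspan8 overlap genes on the other strand.

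Genes that respond to GDNF and FGF had 14 tested members, and 6 were lower in Q3 than in Q1 (Etv5, Dusp6, Spry2, Spry4, Lhx1 and Egr2) with 0 higher and a median difference of −1.01. Each of the 6 lost the call with the log2 of the mean FPKM, with the sign unchanged. Over all genes tested, 0.864% were called lower than in Q1 and the median was −0.10. This list, too, was chosen with earlier results of these data known, and the comparison is a description. Dusp6, a phosphatase that inactivates ERK kinases, stood at 3.02, 3.63, 2.97 and 3.10 in Q3, below Q2 (4.27 to 5.23) and Q1 (5.18 to 6.44), and its mean in Q4 was 1.48 ± 1.01. It fell by 2.59 from Q1 (SE 0.42, adjusted p = 0.00136). Spry2 and Spry4, inhibitors of receptor tyrosine kinase signalling, were lower by 1.51 (SE 0.33, adjusted p = 0.0207) and 1.82 (SE 0.33, adjusted p = 0.00385). Etv5, Lhx1 and Egr2 belong to more than 1 group described here and are not separate evidence.

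Of the 12 genes higher in Q3 than in Q1, Upp1, Rhox10 and Sohlh1 belonged to the lists for progenitors and differentiating cells. Upp1, which encodes uridine phosphorylase, stood at 4.18, 5.33, 3.39 and 6.23 in Q3, with means of 2.89, 3.83, 4.78 and 5.73 from Q1 to Q4, and it rose by 1.90 (SE 0.41, adjusted p = 0.0166). Rhox10, an X-linked homeobox gene, rose by 1.71 (SE 0.39, adjusted p = 0.0277), and Sohlh1, a helix-loop-helix factor needed for differentiation, by 1.65 (SE 0.35, adjusted p = 0.0144). Sohlh1 reached 5.41 in Q2, close to Q3 (5.76) and Q4 (6.09), while Q1 stood at 4.11. The remaining genes of the 12 were Ndrg4, Snx33, Eppin, Enc1, Sgk1, Rbck1, Gng13, Nhp2 and Dctpp1, with rises of 0.76 to 2.36.

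Among the 17 tested progenitor genes 2 were higher than in Q1 and 0 lower (median 0.43), 1, Sdc4, was higher than in Q4, and 0 were called against Q2. Among the 10 tested differentiation genes 1 was higher than in Q1 (median 0.35) and 0 were called against Q2 or Q4. Of all genes tested, 0.115% were called higher than in Q1 (median −0.10) and 0.00961% higher than in Q4. Both lists were chosen with earlier results of these data known. Kit, the receptor of differentiating spermatogonia, had means of 0.99, 0.99, 1.43 ± 0.73 and 2.32 ± 1.64, and Stra8, induced by retinoic acid, 3.45, 4.28, 4.48 ± 0.64 and 5.05, with overlap of all quartiles. Neurog3 stood at 1 FPKM or more in 10 of 71 Q3 cells, 3 of 79 in Q1, 11 of 78 in Q2 and 9 of 72 in Q4, and Sox3 in 26 of 71, while Zbtb16 means were 4.94, 4.81, 4.60 and 4.11. Kit, Stra8, Neurog3, Sox3 and Zbtb16 gave 0 calls in the comparisons with Q1, Q2 and Q4, and of the other settings 1 gave a call, that of Neurog3 against Q1 after median centring (adjusted p = 0.0489).

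**Figure D2:**
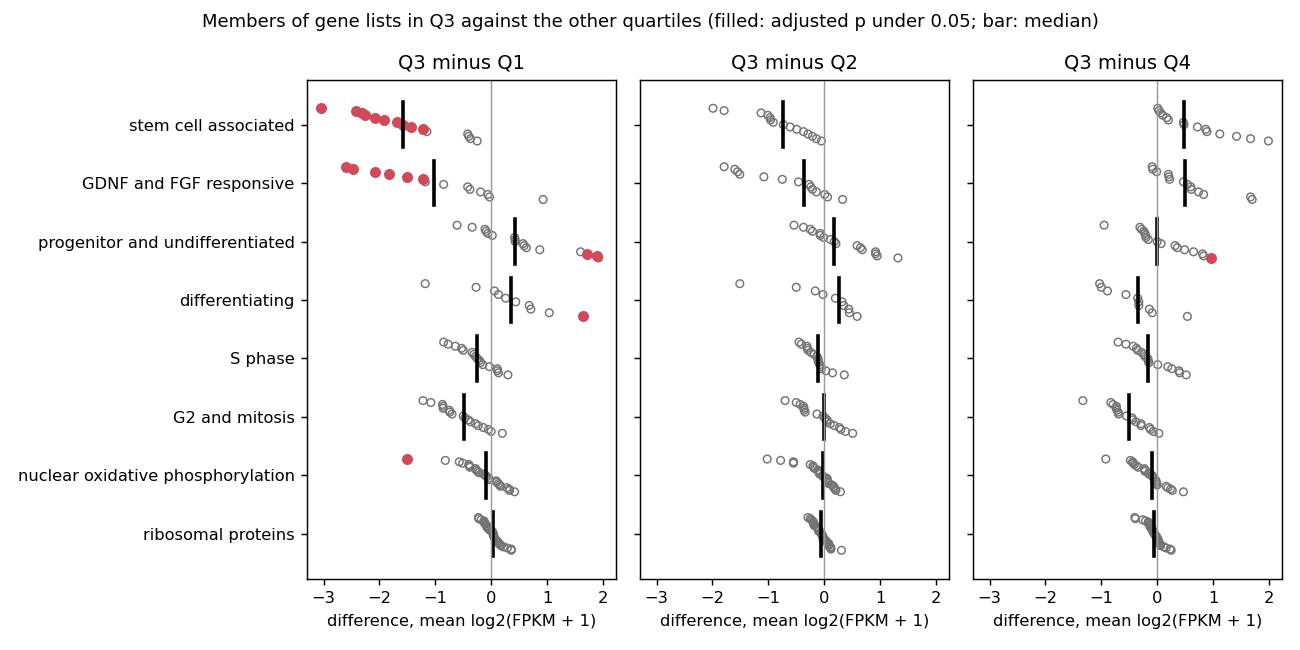
Difference in mean log2(FPKM + 1) between Q3 and Q1, Q2 or Q4 (panels) for each tested member of 8 gene lists (rows). Filled points have an adjusted p under 0.05 and bars are list medians: the stem cell list has 10 filled points below 0 against Q1, and Sdc4 is the 1 filled point against Q4.

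Other processes gave few calls or none. Of 25 tested subunits of oxidative phosphorylation, 1 (Ndufa1) was lower than in Q1, with a list median of −0.10, equal to that of all genes. Of 17 S phase genes and 18 genes of G2 and mitosis 0 were called in any comparison, and the medians against Q1 were −0.25 and −0.48. Mki67, the proliferation antigen, stood at 1 FPKM or more in 36 of 71 Q3 cells, with a mean of 2.14 ± 0.82 against 3.22 ± 0.66 in Q1 and 2.70 ± 1.00 in Q4. The 30 ribosomal protein genes lay within −0.23 to 0.36 of Q1 with 0 called. The retinoic acid pathway (13 tested), heparan sulfate genes other than Sdc4 (14), germ cell RNA-binding proteins (15), meiotic prophase (14), immediate early genes (12), BMP and TGF-beta (11), glycolysis (16), BCL2 family (12) and DNA methylation (5) had 0 calls as well. In the BCL2 family the pro-apoptotic Bax stood 1.01 above the mean of the other quartiles and Pmaip1 0.93 below it, with adjusted p-values of 0.398 and 0.621. Lin28a, an RNA-binding protein of undifferentiated germ cells, stood 1.19 above them (adjusted p = 0.490).

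For the 90 genes lower than in Q1, Q4 was lower still in 57 and higher than Q3 in 33, and Q2 lay between Q1 and Q3 in 88. The median of the 90 was −0.86 against Q2 and 0.14 against Q4. For the 12 higher genes, Q3 exceeded Q4 in 9, and Q2 lay between in 12. These genes were picked by the Q3 means themselves, so the positions are a description. Against Q2, the nearest brighter quartile, 0 of 10411 genes were called (0%, limma), 767 had an unadjusted p under 0.05 and the smallest adjusted p was 0.164.

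Inside Q3, several genes divided the cells into those listed near 0 and those at high levels. Stra8 was under 1 FPKM in 26 cells, between 1 and 30 FPKM in 6 and at 30 FPKM or more in 39. Upp1 divided into 22, 3 and 46 cells and Crabp1, a retinoic acid binding protein, into 9, 1 and 61. For Nanos3 the numbers were 14, 8 and 49, and for Tcl1 21, 11 and 39. Etv5 and Dusp6 were spread more evenly, with 25, 25 and 21 cells and with 26, 21 and 24. Such divisions were not particular to Q3. Stra8 divided into 26, 20 and 33 cells in Q1, 25, 17 and 36 in Q2, and 22, 11 and 39 in Q4. In Q1, Tcl1 was at 30 FPKM or more in 70 of 79 cells, and in Q4 in 18 of 72. The median over the cells that had Tcl1 was 84 FPKM in Q3, 253 in Q1 and 47.2 in Q4. These counts and medians pool cells over preparations, and the level among such cells was not tested. A gene at 0 FPKM in a cell is a gene listed at 0 there and may still be expressed.

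**Figure D3:**
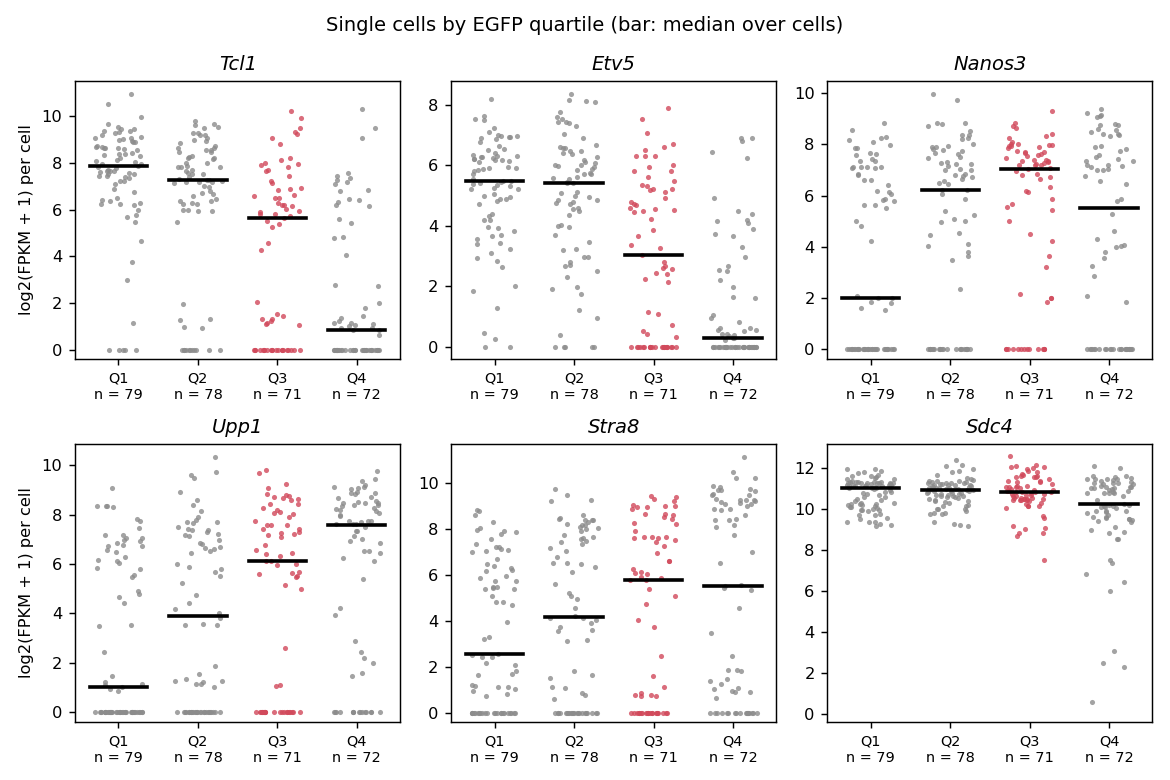
log2(FPKM + 1) of 6 genes in single cells (points, jittered sideways) of quartiles Q1 to Q4, with the median over cells as a bar and Q3 in red. Q3 cells divide into those at or near 0 and those at high levels for Tcl1, Nanos3, Upp1 and Stra8, while 71 of 71 Q3 cells express Sdc4 at 182 FPKM or more.

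Stem cell and differentiation transcripts occurred together in the same Q3 cells as well as apart. By Gfra1 and Kit at 1 FPKM or more, 22 of 71 cells had Gfra1 only, 10 Kit only, 13 both and 26 neither. The share with neither averaged 36.6% ± 12.9 (SD, n = 4) in Q3, 12.9% ± 12 in Q1, 20.2% ± 20.0 in Q2 and 35.6% ± 21.1 in Q4, and its exact permutation p was 0.211. Tcl1 and Stra8 were both at 1 FPKM or more in 29 cells, Tcl1 alone in 21, Stra8 alone in 16 and neither in 5. Both were at 1 FPKM or more in 48 of 79 Q1 cells, 44 of 78 in Q2 and 22 of 72 in Q4. Etv5 and Dusp6 were both at 1 FPKM or more in 38 cells and both under it in 18.

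The spread between cells was compared with that in the other quartiles through the SD of log2(FPKM + 1) in each preparation, and 0 of 10411 genes passed (0%, limma, smallest adjusted p 0.720), with 555 at an unadjusted p under 0.05. The 5 with the smallest p among those more variable in Q3 were Tango6, Snx33, Zfp963, Cacnb3 and Ndufa1. For Ndufa1 the SD was 3.31 in Q3 and 1.59, 2.13 and 2.68 in Q1, Q2 and Q4, and 15 of 71 Q3 cells lay under 1 FPKM, against 2 of 79 in Q1. The 5 less variable were Zfp809, Mpzl2, Wwtr1, Ptpmt1 and Enc1. Enc1 differed from the other 4 in being abundant: its SD was 2.41 in Q3 and 2.67, 2.85 and 3.39 in Q1, Q2 and Q4, while Zfp809 was at 1 FPKM or more in 2 Q3 cells and Ptpmt1 in 4. Within Q3 alone, the genes with the largest excess of SD over genes of like mean level were Gmnn, Mrps18c, Tuba3b, Stra8, Ndufa1, Crabp1, Snhg9, Zfp948, Upp1 and Enc1, with excesses of 1.24 to 1.41. For Stra8 the SD between Q3 cells was 3.76, against 2.37 for genes at its level.

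The main direction of variation among Q3 cells, after each preparation was centred, was a principal component that held 4.68% of the variance. Its rank correlation with the number of genes per cell was 0.94 (n = 71 cells), and that with estimated fragments was −0.21. The 8 genes at its high end were Stra8, Crabp1, Crip2, Ube2c, Kif20a, Gmnn, Larp1b and Cdca3. Stra8 and Crabp1 belong to both the differentiation and the retinoic acid pathway lists, and Ube2c to that of G2 and mitosis. At the low end stood Etv5, Ppfibp2, Foxc2, Ret, Hhex, Spry4, Mcam and Glb1l3, of which Etv5, Foxc2, Ret, Hhex and Mcam belong to the stem cell list. Mean levels of the differentiation list correlated with the component at 0.79, those of G2 and mitosis at 0.70 and those of the stem cell list at −0.45. With genes per cell these 3 values were 0.71, 0.56 and −0.36. Other lists followed the component as well, among them the retinoic acid pathway (0.75), oxidative phosphorylation (0.71), meiotic prophase (0.60), DNA methylation (0.59) and glycolysis (0.51). The GDNF and FGF list (−0.22), the immediate early genes (−0.16) and the ribosomal proteins (−0.13) ran weakly against it. The share of these relations that goes with genes per cell was not tested. The component was built from all tested genes, the list members among them, so these correlations describe it and are not separate evidence. A second component (2.58%) ran from Akr1b8, Tcl1 and Eapp at its high end to Gmnn, Dnajc9, Top2a and Rrm2, genes of DNA replication and division, at its low end, and its correlation with genes per cell was 0.22.

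**Figure D4:**
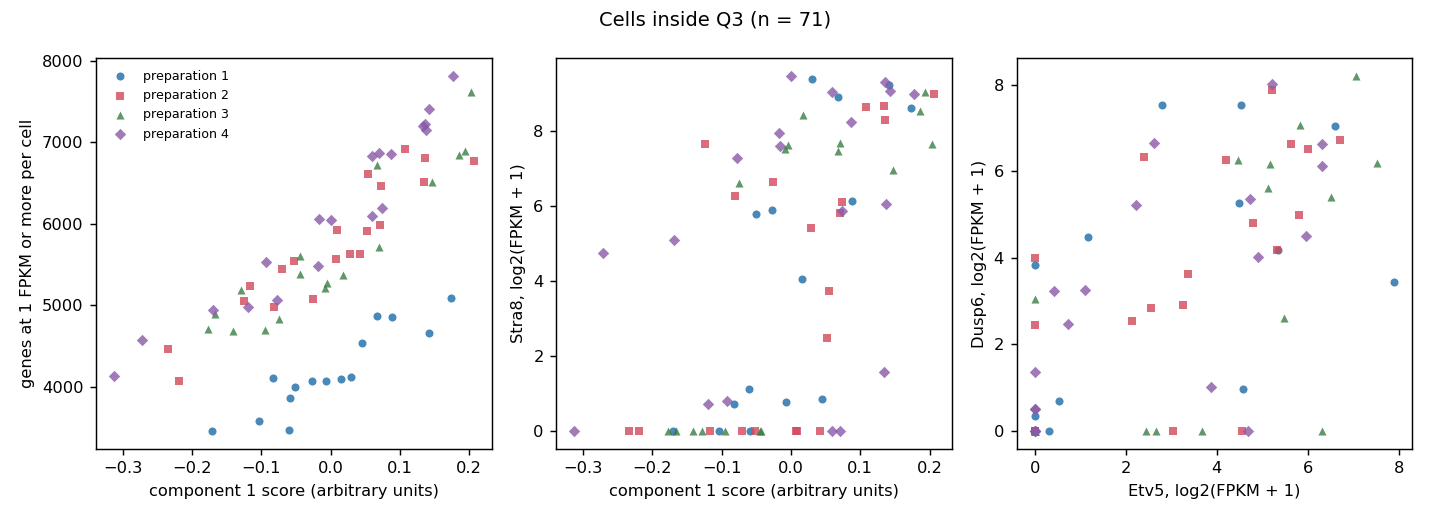
The 71 Q3 cells by preparation (symbols): genes per cell against the score on the first component (left), Stra8 against that score (middle), and Dusp6 against Etv5 (right), both genes as log2(FPKM + 1). Cells with more genes have higher scores in each preparation, with preparation 1 offset downward, and cells with high Etv5 tend to have high Dusp6.

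Pairs of genes were described by rank correlations over the 71 Q3 cells, centred by preparation, with no test, since cells share a library preparation and differ in genes per cell. Etv5 and Dusp6 gave 0.66, Stra8 and Crabp1 0.62, Gfra1 and Etv5 0.60, Kit and Stra8 0.58, and Nanos3 and Upp1 0.55. In the other quartiles Etv5 and Dusp6 gave 0.28 (Q1), 0.35 (Q2) and 0.37 (Q4), and Stra8 and Crabp1 gave 0.36, 0.14 and 0.58. Gfra1 and Etv5 gave 0.29, 0.35 and 0.28 there, and Kit and Stra8 0.41, 0.28 and 0.76, so that Q4 exceeded Q3 for Kit and Stra8. Within Q3, Sdc4 ran against Stra8 (−0.59), Kit (−0.47) and Crabp1 (−0.43), the lowest values among the panel pairs, and with Etv5 (0.34). Sdc4 and Kit gave −0.13 in Q1, −0.27 in Q2 and −0.54 in Q4. Correlations with genes per cell were −0.49 for Sdc4, 0.53 for Stra8, 0.58 for Crabp1, 0.52 for Kit and −0.42 for Etv5, and 0.24 for Nanos3 and Rarg. Nanos3 and Rarg gave 0.35 with one another, and Rarg and Upp1 0.35 as well.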

How the data were processed

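Single-cell expression was analysed for 300 adult mouse spermatogonia in 4 preparations. The deposited table holds 1 value for each of 23354 gene names and 300 cells. No unit is stated in it, and the deposited values were taken as FPKM because Cufflinks is among the tools in the submitters' processing notes. Those notes also list Picard, FastQC and TopHat, and the builds GRCm38 and mm10, without roles. How the authors filtered cells or genes, and their annotation, are not given in the sources used here. Of the names, 23213 matched a known symbol; 0 columns lacked a sample and 0 were identical. The Id4 gene and mitochondrial genes are not analysed here.

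Log2(FPKM + 1) was averaged over the cells of each preparation and quartile (16 means). Genes at 1 FPKM or more in at least 30 cells (10411) entered limma 3.58.1 in R 4.3.3, with quartile and the preparation as a block, and variances following mean level with robust moderation (9 residual degrees of freedom). The fit was also run on simulated means with normal noise and known shifts in Q3. That run covered only the contrast of Q3 with the mean of the other quartiles. The block was used because same-numbered means share animals and a chip; their deviations correlated at 0.0112 to 0.360 (median 0.129, 24 pairs), against a median of −0.0431 between preparations. SDs over cells were fitted likewise. Shares and genes per cell were tested by exact two-sided permutation of the Q3 label within preparations (smallest possible p 0.00391). Components used Q3 cells centred by preparation. Depth was estimated from the FPKM step worth 1 fragment in 3784 genes with a single transcript. A match to another cell type needed 5 FPKM or more in 3 list members and in 50% of them.

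Named genes are the 3 markers, a panel of 20 genes, up to 10 per direction with Q3 highest or lowest by smallest p, up to 6 per direction called against Q2 or Q4 and 4 against Q1, 5 per direction by SD, 10 by excess SD, 8 at each end of component 1, and up to 4 per list by smallest p. The other genes named among the calls against Q1, the further members of the lists, component 2 and the Sdc4 promoter were chosen after their values were seen. Members and lists were chosen with earlier results of these data known. Sequences are RefSeq promoter windows; 2 genes ranked higher (Crygs and Gsta4) were passed over because an annotated exon lies in the window. Alternatives left out the block, changed the pseudocount to 0.1 or 10, the filter, the centring, or the averaging, added genes per cell as a covariate, left out cells matching another type, or left out 1 preparation.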

Additional observations from a re-analysis of the deposited data

Results flagged for a closer look

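Of 143 sets of 4 Q3 preparation values, 11 had 1 preparation far from the other 3, and chance alone would mark about 1 in 20. Preparation 1, which also had the fewest genes per cell, was the distant one in 7. Among genes high or low in Q3, it stood at 2.74 for Eppin (others 1.60 to 1.67), at 1.66 for Mfsd5 (others 3.40 to 3.65) and at 6.42 for Ypel5 (others 7.31 to 7.44), all as mean log2(FPKM + 1). Of the S phase genes, it stood at 6.16 for Hells, a chromatin remodeller (others 7.55 to 7.73), and at 2.06 for Mcm5, a subunit of the replicative helicase (others 4.77 to 5.27). Of the later germ cell genes, it stood at 1.07 for Ldhc (others 0.06 to 0.23) and 0.43 for Tnp2 (others 0). In preparation 2 the ribosomal protein gene Rpl8 stood at 10.79 (others 10.28 to 10.33). In preparation 3 the macrophage marker Cd68 stood at 1.31 (others 0.43 to 0.52), and Tcl1 was at 1 FPKM or more in 58.8% of Q3 cells (others 73.3% to 75%). In preparation 4 Stra8 was at 1 FPKM or more in 73.7% of Q3 cells (others 58.8% to 60%).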

How the results depend on the processing

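The absence of calls for Q3 against the mean of the other quartiles held under all 13 alternatives, and that for the SD between cells under the same alternatives other than the log2 of the mean FPKM, which has no SD between cells. For Q3 against Q4 the 1 call became 0 without the preparation (replicate) block, with a pseudocount of 10, with no filter, with median centring and with the log2 of the mean FPKM, became 2 with a pseudocount of 0.1, and ranged from 0 to 2 when 1 preparation was left out. For Q3 against Q2, leaving out 1 preparation gave 0 to 1 calls; the call, Nefm, came without preparation 2 (adjusted p = 0.0489). For Q3 against Q1 the 102 calls became 33 without the block, 54 with no filter, 57 with genes per cell as a covariate, 7 with the log2 of the mean FPKM, and 31 to 85 when 1 preparation was left out (48 without preparation 3 and 34 without preparation 4). Of the 102, 4 (Ptpn13, Mpzl2, Rab4a and Ndrg4) were called wherever they were tested, 48 lost the call in at least 50% of the alternatives and 0 changed sign. The Sdc4 difference between Q3 and Q1, 0.02 and not called, changed sign with the covariate (−0.28) and without preparation 2 (−0.11). Differences near 0 that were not called also changed sign: Neurog3 against Q4 (−0.06 with a pseudocount of 0.1, −0.03 with median centring, −0.04 with the covariate, −0.13 to 0.15 when 1 preparation was left out), Sox3 against Q2 (0.01 with a pseudocount of 10, 0.05 with median centring, −0.27 to 0.22 by preparation) and, by preparation, Sox3 against Q4 (−0.56 to 0.12), Stra8 against Q2 (−0.39 to 0.53) and Zbtb16 against Q2 (−0.53 to 0.01). Depth limits low genes: a gene listed at 0 in a cell with few fragments may be expressed there.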
